A study of Mus musculus with 5 samples.

Results

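Mitochondrial ribosomal proteins were taken as every gene whose symbol begins with Mrpl or Mrps followed by a digit, which selected 77 of the 24421 gene symbols counted in mouse kidney. RNA sequencing read counts were available for kidney cortex of 3 mice lacking Fnip1 (mice 8637, 9210 and 9121, genotype Fnip1-/-) and 2 wildtype mice (9055 and 9056, genotype Fnip1+/+), all on the C57BL6J background and with no treatment named. Fnip1 encodes a partner of Folliculin, the product of the gene mutated in Birt-Hogg-Dube' syndrome. The null allele came from chemical mutagenesis with ENU and is present in every cell of the animal, and the study's text also writes the genotype of its controls as Fnip1+/-. The comparison asks how the RNAs of these 77 genes differ between cortex with and without Fnip1.

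The mitochondrial ribosome translates the few messages encoded by mitochondrial DNA, all of which specify membrane subunits of the oxidative phosphorylation complexes. Its RNAs come from mitochondrial DNA, whereas every one of its proteins is encoded in the nucleus, made in the cytosol and imported. Some of these proteins descend from bacterial ribosomal proteins and others have no bacterial counterpart. The cortex of the kidney is rich in mitochondria because proximal tubule cells drive solute reabsorption with oxidative metabolism.

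The symbols do not map perfectly onto the particle. Mrps30 and Mrps18a carry small subunit names but are placed in the large subunit in known structures, and Mrps36 is now regarded as a subunit of the 2-oxoglutarate dehydrogenase complex. The 77 genes were therefore divided into 30 large subunit proteins with bacterial homologs, 20 mitochondria-specific large subunit proteins, 16 small subunit proteins with bacterial homologs, 10 mitochondria-specific small subunit proteins, and Mrps36 on its own. Mrps18a and Mrps18b were listed as mitochondria-specific although both are paralogs of bacterial protein S18, so those lists are not wholly free of bacterial relatives. A further 6 mitoribosomal proteins with other names (Dap3, Ptcd3, Aurkaip1, Chchd1, Gadd45gip1 and Ict1) were followed separately.

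The promoters of 4 members are shown because they frame the contrasts below. Mrps18a, Mrps18b and Mrps18c are paralogs of bacterial protein S18 and differed in the sign of their fold change, and Mrps6 had, with Mrpl23, the most positive fold change. Each sequence is the RefSeq stretch (GRCm38.p6) up to the first listed start site, ended earlier where the Ensembl gene begins sooner, and is written 5′ to 3′ on the strand of the gene. Capitals mark matches to CCGGAAG (the core bound by ETS factors), GCGCATGCG (bound by NRF1) or AAGATGGC (bound by YY1) on either strand.
Mrps18a (chr17:46110754-46110985, plus strand): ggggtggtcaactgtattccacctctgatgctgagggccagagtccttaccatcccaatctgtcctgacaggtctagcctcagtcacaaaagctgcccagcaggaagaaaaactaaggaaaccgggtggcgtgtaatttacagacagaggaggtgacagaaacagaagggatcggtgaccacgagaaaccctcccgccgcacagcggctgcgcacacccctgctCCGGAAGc
Mrps18b (chr17:35916441-35916690, minus strand): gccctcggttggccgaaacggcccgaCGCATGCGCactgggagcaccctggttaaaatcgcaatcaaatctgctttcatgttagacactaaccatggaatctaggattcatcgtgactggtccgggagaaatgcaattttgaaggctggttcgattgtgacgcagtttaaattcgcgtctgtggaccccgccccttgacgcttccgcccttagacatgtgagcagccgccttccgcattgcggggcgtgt
Mrps18c (chr5:100798509-100798626, plus strand): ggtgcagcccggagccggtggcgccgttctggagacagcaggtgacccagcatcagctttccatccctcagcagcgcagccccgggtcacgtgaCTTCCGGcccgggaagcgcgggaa
Mrps6 (chr16:92058086-92058269, plus strand): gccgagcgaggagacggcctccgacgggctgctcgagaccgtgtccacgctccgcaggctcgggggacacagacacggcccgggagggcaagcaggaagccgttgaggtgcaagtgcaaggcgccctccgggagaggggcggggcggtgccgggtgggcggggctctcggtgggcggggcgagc
The stretches of Mrps18a and Mrps18c each held the ETS letters, that of Mrps18b held the NRF1 letters, and that of Mrps6 held none of the 3. The window used for the promoter counts below runs on past the start site. In that window Mrps18a and Mrps18b each held 2 of the 3 motifs, Mrps18c held 1 and Mrps6 held 0.

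Gene counts totalled 15799114 to 19132145 per mouse, and 13874 genes with enough counts were tested. Levels are given as CPM (the count of a gene scaled to a fixed library total) after TMM scaling, the trimmed mean of M-values factor of edgeR, and 3 counts corresponded to 0.158 to 0.186 CPM. Fnip1 itself had 21.0, 16.9 and 16 CPM in the null mice and 51.8 and 48.7 CPM in the wildtype mice, so the libraries matched their labels (log2 fold change -1.48, SE 0.136, adjusted p = 0.0313 by edgeR's quasi-likelihood test). Mouse 9121 stood apart: it had 5954 counts of Xist against 3 to 24 in the other 4 mice, and 0 counts of the Y-linked genes Ddx3y, Uty and Kdm5d, which all 4 others expressed. The labels give no sex, and results are therefore also given without that mouse. Nothing in the labels ties mice to litters or batches, so p-values reflect the spread between these 5 mice.

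No mitochondrial ribosomal protein gene passed an adjusted p of 5% between Fnip1 null and wildtype cortex (0 higher and 0 lower of 77, edgeR quasi-likelihood test), where 0.735% of all genes tested did and 0.533% did with at least a 2-fold change. Without adjustment, 14 of the 77 had a p under 0.05, 13 of them lower and 1 higher, which is 18.2% of the members beside 25.1% of all genes tested. Those 25.1% were split more evenly, with 1548 lower and 1933 higher of 13874 genes, whereas the members with such a p were nearly all lower. All 77 members passed the filter on low counts, with 227 to 3936 counts per mouse and a mean level of 14.4 to 197 CPM. Their precision was correspondingly good, with a median SE of 0.107 on the log2 scale beside 0.152 over all genes. The 95% interval of the fold change stayed within 2-fold in either direction for all 77 members, beside 70.2% of all genes tested, and the outermost bounds were -0.72 and 0.87. A 2-fold difference was therefore outside the interval of every member, whereas smaller differences were not resolved for most of them.

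The fold changes were small and mostly negative. The log2 fold changes ran from -0.44 to 0.40, with a median of -0.111, and 59 of 77 were negative (76.6%) beside 49.5% of all genes tested, whose median was 0.00312. Of the members, 56 lay within 0.2 of 0, and the median absolute log2 fold change was 0.139 beside 0.223 over all genes. The sign of the median depended on the scaling. With library size alone the median of the members was 0.0529 and 47 were positive, but the median of all genes moved to 0.167. Relative to the median of all genes, the median of the members was -0.114 under either scaling, and 59 members lay below it in both. A change of scaling moves all genes by nearly the same amount. The scalings therefore had to agree on this difference, and their agreement does not show which is right. Without mouse 9121 the median was -0.0971 and 18 members were positive.

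**Figure D1:**
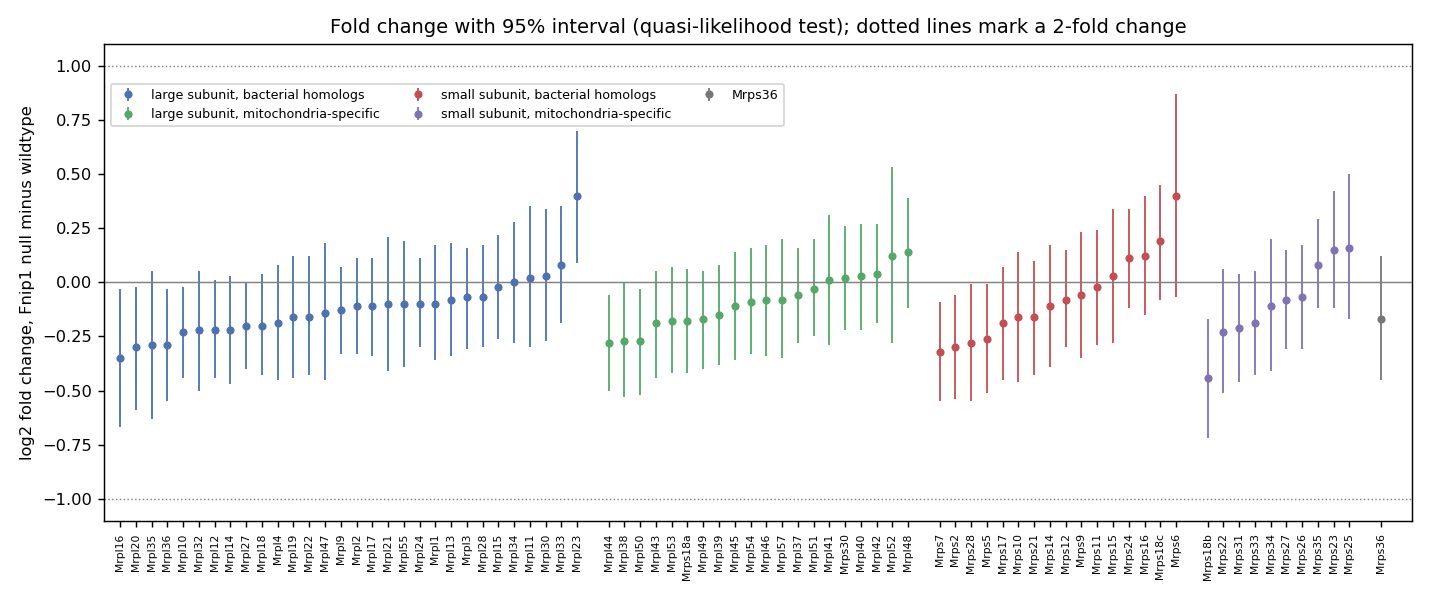
The points give the log2 fold change (Fnip1 null minus wildtype, vertical axis) of each of the 77 members along the horizontal axis, grouped by subunit and origin, and the bars its 95% interval from the quasi-likelihood test with 3 null and 2 wildtype mice. The points run from -0.44 for Mrps18b to 0.40 for Mrpl23 and Mrps6, and no bar reaches the dotted lines at a 2-fold change.

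The values of single mice show how much of this rested on the wildtype pair. For 31 members (40.3%) every null value lay under the lower wildtype value, as for 23.0% of all genes tested, and for 2 members, Mrpl23 and Mrps18c (2.6%), over the higher one, as for 22.9%. For the other 44 the genotypes overlapped. With library size alone these counts were 6 below and 16 above, where 11.4% and 37.2% of all genes were, and with upper-quartile factors 19 and 4, where 18.0% and 27.4% were. The members together summed to 3595, 3689 and 3519 CPM in null mice 8637, 9210 and 9121 and to 3683 and 4086 CPM in wildtype mice 9055 and 9056. The groups overlapped, because null mouse 9210 lay just above wildtype mouse 9055. Their means were 3601 CPM in null and 3884 CPM in wildtype mice, an order that turned with library size alone (3769 and 3628 CPM). Between the wildtype mice, 73 of 77 members were lower in 9055 than in 9056, with a median log2 difference of -0.162, larger in size than the median difference between genotypes, while the median over all genes was -0.00762. Against 9056 alone, all 3 null mice were lower for 59 members, and against 9055 alone for 32 members, where 34.0% and 29.8% of all genes were lower. They were higher than 9056 for 3 members and higher than 9055 for 17 members, where 34.0% and 31.3% of all genes were higher. Leaving out 9055 gave a median of -0.189 and leaving out 9056 one of -0.0181, so the size of the common offset depended on which wildtype mouse was used.

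**Figure D2:**
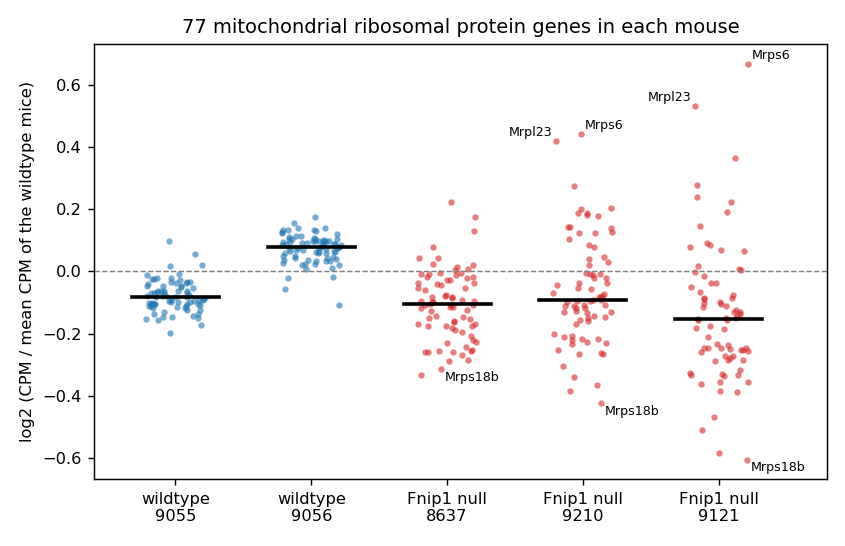
Each point is 1 of the 77 members in 1 mouse, as the log2 ratio of its TMM-normalized CPM to the mean of the 2 wildtype mice (vertical axis), and black lines mark the median of each mouse. The medians are -0.0833 and 0.0787 in the wildtype mice, which mirror each other by construction, and -0.103, -0.0918 and -0.153 in null mice 8637, 9210 and 9121.

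The most negative member was Mrps18b, one of the 3 S18 paralogs, listed here with the mitochondria-specific proteins of the small subunit. Its level was 34.5, 32 and 28.2 CPM in the null mice and 42.1 and 43.7 CPM in the wildtype mice. All 3 null mice were below both wildtype mice, and the lowest value was that of mouse 9121. The log2 fold change was -0.44 (SE 0.113, 95% interval -0.72 to -0.17) with an adjusted p of 0.102 by the quasi-likelihood test, the lowest of the 77. It was -0.37 without mouse 9121. The adjusted p was 0.0517 by edgeR's exact test, by which 0 members and 9.77% of all genes passed, 0.0497 by its likelihood ratio test and 0.0467 by DESeq2. Mrps18b was the single member called lower by the likelihood ratio test and by DESeq2, where 3.8% and 4.14% of all genes were called lower, so its call depended on the test. Of its 2089 annotated exon bases, 638 are shared with an antisense transcript, Gm16279, and no source used here states whether counting took strand into account.

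The other S18 paralogs differed from it. Mrps18a, which sits in the large subunit, had 53.6, 55.8 and 51.1 CPM in the null mice and 56.0 and 65.0 CPM in the wildtype mice. The null mice were again below both wildtype mice, but 9210 and 9055 nearly met (log2 fold change -0.18, SE 0.1, adjusted p = 0.313). Mrps18c, in the small subunit at the place of bacterial S18, had 24.7, 24.9 and 25 CPM in the null mice and 20.3 and 23.4 CPM in the wildtype mice. It was 1 of the 2 members with every null mouse above both wildtype mice (log2 fold change 0.19, SE 0.108, adjusted p = 0.327), and the null mice had a coefficient of variation of 0.597%, the lowest of all members. Of the 1076 annotated exon bases of Mrps18c, 250 are shared on the same strand with Gm43511, which is not among the genes counted. Within each mouse, the CPM of Mrps18b was 1.4, 1.28 and 1.13 times that of Mrps18c in the null mice and 2.07 and 1.87 times in the wildtype mice. Every null mouse was below both wildtype mice for Mrps18b and above both for Mrps18c, so these ratios could not overlap between genotypes. They restate those orders and are given without a test.

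Mrpl23, the homolog of bacterial L23 near the exit of the peptide tunnel, was the second member above both wildtype mice. It had 23.8, 27.3 and 29.5 CPM in the null mice and 19.9 and 20.9 CPM in the wildtype mice. The log2 fold change was 0.40 (SE 0.126, 95% interval 0.09 to 0.70, adjusted p = 0.133) and was 0.32 without mouse 9121. The annotation holds a pseudogene, Mrpl23-ps1, so part of its reads may have been set aside as not unique. Mrps6, a small subunit protein of the platform region, had 73.3, 99.1 and 116 CPM in the null mice and 78.1 and 67.7 CPM in the wildtype mice. Null mouse 8637 lay between the wildtype mice and the other null mice above them, and the log2 fold change was 0.40 (SE 0.196, 95% interval -0.07 to 0.87, adjusted p = 0.258) and 0.24 without mouse 9121. It varied more between null mice than any other member, with a coefficient of variation of 22.3%. Mrps6 shares 159 exon bases on the same strand with Slc5a3, the myo-inositol transporter gene, whose level was 267, 199 and 210 CPM in the null mice and 307 and 193 CPM in the wildtype mice. The ratio of Mrps6 to Slc5a3 was 0.275, 0.499 and 0.552 in the null mice and 0.254 and 0.35 in the wildtype mice, so it overlapped between genotypes.

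**Figure D3:**
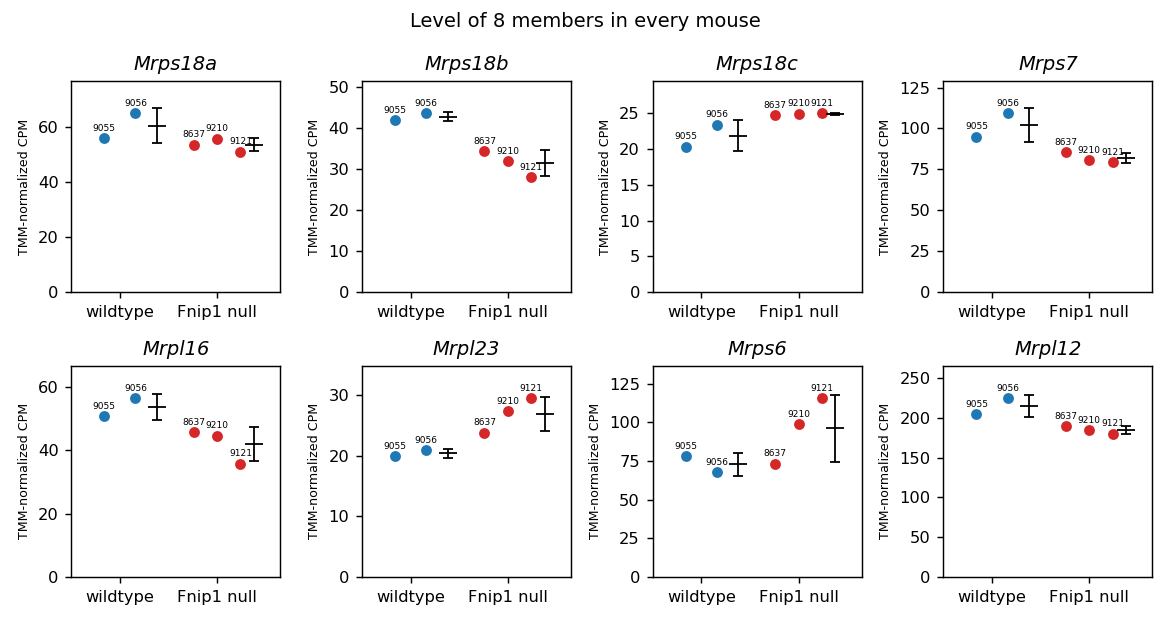
TMM-normalized CPM (vertical axis, from 0) is plotted for 8 members in every mouse, with the mean and SD of each genotype beside the points (n = 2 wildtype, blue, and n = 3 Fnip1 null, red). Null mice lie below wildtype mice for Mrps18a, Mrps18b, Mrps7, Mrpl16 and Mrpl12, above them for Mrps18c and Mrpl23, and on both sides for Mrps6.

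Among large subunit proteins with bacterial homologs, 26 of 30 fold changes were negative, with a median of -0.122. For 13 of them the 3 null values were under the wildtype values and for 1 over them, where 23.0% and 22.9% of all genes tested were. Mrpl16, the homolog of L16 near the peptidyl transferase centre, had 45.8, 44.7 and 35.9 CPM in the null mice and 50.8 and 56.6 CPM in the wildtype mice. It had the most negative value of this group, -0.35 (SE 0.132, adjusted p = 0.174), and -0.25 without mouse 9121, the null mouse with the lowest level. Mrpl20, the homolog of the rRNA-binding protein L20, had 63.1, 72.5 and 57.4 CPM against 76.0 and 82.9 CPM (log2 fold change -0.30, SE 0.12, adjusted p = 0.186). Its null mice differed from each other by more than the gap between the genotypes.

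The stalk of the large subunit, which recruits the GTPase factors of translation, is built from Mrpl10, Mrpl11 and Mrpl12, and Mrpl12 also binds the mitochondrial RNA polymerase. Mrpl12 had 190, 185 and 180 CPM in the null mice and 205 and 225 CPM in the wildtype mice (log2 fold change -0.22, SE 0.0943, adjusted p = 0.214). Mrpl10 had 90.0, 86.1 and 87.0 CPM against 98.0 and 108 CPM (log2 fold change -0.23, SE 0.0872, adjusted p = 0.172). For both genes every null mouse was below both wildtype mice, as for 40.3% of the members and 23.0% of all genes tested. Mrpl11 had 35.6, 43.6 and 41.3 CPM against 35.5 and 43.5 CPM, and its groups overlapped (log2 fold change 0.02, SE 0.136, adjusted p = 0.926).

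Of the mitochondria-specific large subunit proteins, 14 of 20 had negative fold changes with a median of -0.0852. In this group 8 had every null mouse below both wildtype mice and 0 had every null mouse above, where 23.0% and 22.9% of all genes tested did. Mrpl44, an RNase III-like protein, was the most negative, with 43.2, 45.3 and 41.9 CPM in the null mice and 50.3 and 55.2 CPM in the wildtype mice (log2 fold change -0.28, SE 0.0922, adjusted p = 0.142). The null values lay close together, and the gap to the lower wildtype mouse was larger than their range. Mrpl45, which lies at the tunnel exit and holds the ribosome to the inner membrane, had 47.7, 48.3 and 46.8 CPM against 47.0 and 55.9 CPM, so that only wildtype mouse 9056 differed from the rest. Mrps30, a large subunit protein despite its name, had 33.4, 37.4 and 33.4 CPM against 33.4 and 35.2 CPM, with a log2 fold change of 0.02.

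In the small subunit, 11 of 16 proteins with bacterial homologs had negative fold changes (median -0.0934, 6 with every null mouse below both wildtype mice and 1 above), as did 7 of 10 mitochondria-specific ones (median -0.0943, 4 below and 0 above). Over all genes tested, 23.0% were below and 22.9% above in this way. Mrps7, which belongs to the head of the subunit, had 85.5, 80.7 and 79.4 CPM in the null mice and 95 and 109 CPM in the wildtype mice (log2 fold change -0.32, SE 0.0967, adjusted p = 0.125). Mrps2 had 47.7, 41.9 and 42.2 CPM against 52.3 and 55.6 CPM (log2 fold change -0.30, SE 0.0994, adjusted p = 0.145). Neither gene overlapped between genotypes, and without mouse 9121 the log2 fold changes were -0.30 and -0.27. Mrps28, the homolog of S1, had 21.6, 21.7 and 20.5 CPM against 23.8 and 27.9 CPM (log2 fold change -0.28, SE 0.113, adjusted p = 0.19). Mrps12, a protein of the decoding centre, had 32.3, 32.5 and 30.0 CPM against 33.1 and 33.5 CPM, a log2 fold change of -0.08. At the other end, the mitochondria-specific Mrps23 had 56.2, 65.0 and 69.5 CPM against 58.0 and 56.6 CPM (log2 fold change 0.15, SE 0.112), and Mrps25 had 33.5, 37.0 and 32.3 CPM against 26.7 and 34.5 CPM (log2 fold change 0.16, SE 0.139). Both overlapped between genotypes, and Mrps25 shares 4590 of its 6576 annotated exon bases with Nr2c2 on the opposite strand, so its counts are uncertain. Mrps36, outside the ribosome, had 48.6, 46.8 and 42.1 CPM against 46.8 and 56.1 CPM (log2 fold change -0.17, SE 0.118), and 3 pseudogenes carry its name.

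Taken by subunit, the mean level per kilobase of merged exon was 1.26, 1.23 and 1.2 times as high for large as for small subunit genes in the null mice and 1.28 and 1.34 times in the wildtype mice. The ratios did not overlap between genotypes, but the gap between the nearest mice was smaller than the gap between the wildtype mice.

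Without null mouse 8637, 5 members passed an adjusted p of 5% by the quasi-likelihood test, in a comparison of 2 null with 2 wildtype mice in which 9.89% of all genes were called higher and 9.86% lower. Mrpl23 (log2 fold change 0.48, adjusted p = 0.0317) and Mrps6 (0.56, adjusted p = 0.0269) were higher in that comparison. Mrps18b (-0.51, adjusted p = 0.0276), Mrpl38 (-0.35, adjusted p = 0.0371) and Mrps2 (-0.36, adjusted p = 0.0415) were lower. The 5 calls made up a smaller share of the 77 members than the calls over all genes did. No member passed without null mouse 9210 or without null mouse 9121. By the same quasi-likelihood test, Fnip1 itself passed without 9121 (adjusted p = 0.0146) but not without 9210 (adjusted p = 0.127). The lack of calls without 9210 therefore says little about the members. Without 9055 or 9056 a single wildtype mouse remains, so calls are not given. Of the 2 null mice retained without 8637, 9121 is the one that stood apart by its sex-linked genes.

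Levels per length differed widely between members and changed with the length used. With merged exons, Mrpl12 was the most abundant at 129 ± 11.9 CPM per kilobase (SD, n = 5 mice), followed by Mrpl34 (85.1 ± 6.71), Mrps21 (64.1 ± 5.86), Mrpl27 (56.6 ± 4.59) and Mrps6 (56.6 ± 13.1). The ranges over mice of Mrpl12 and Mrpl34 were separate from all others, whereas those of Mrps21, Mrpl27 and Mrps6 overlapped. The lowest were Mrps10 (3.04 ± 0.312), Mrpl47 (3.25 ± 0.266), Mrpl33 (3.64 ± 0.254), Mrpl15 (4.04 ± 0.191) and Mrpl19 (4.29 ± 0.375), and each overlapped its neighbour in the order. With the length of the principal transcript instead, Mrpl12 was still first (150 CPM per kilobase) and Mrpl47 last (4.27), but Mrps10 moved to 24.1 and Mrpl33 to 55.7 CPM per kilobase, since their merged exons (8079 and 7326 bases) are far longer than their principal transcripts (1018 and 478 bases).

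Many members lie close to other genes. Of the 77, 32 share annotated exon bases with another gene, 24 of them with a gene counted in the files, 21 of these on the opposite strand. Mrpl46 and Mrps11 are such neighbours of each other, overlapping by 173 exon bases, with log2 fold changes of -0.08 and -0.02, which were 0.02 and 0.09 without wildtype mouse 9056. The other 53 members, which share no exon bases with a gene found in the files under its current or an older symbol, had a median log2 fold change of -0.111.

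RefSeq promoters from 250 bases before to 50 after the first listed start were matched for 68 of 77. The ETS letters were present in 24 of the 68 (35.3%), in 17.0% of the other genes tested and in 9.12% of all promoters. The YY1 letters were present in 12 (17.6%), 4.45% and 2.88%, and the NRF1 letters in 7 (10.3%), 3.5% and 1.81%, respectively. At least 1 of these 3 was found in 36 members (52.9%), in 23.2% of the other genes tested and in 13.0% of all promoters. Other elements had lower shares than among the other genes tested: the GC box GGGCGG was found in 50.0% of members and 63.3% of those genes, the TATA letters TATAAA in 5.88% and 7.2%, and the E-box CACGTG in 7.35% and 10.2%. Both strands were searched and overlaps between motifs were allowed. The median log2 fold change was -0.0885 in the 24 members with the ETS letters and -0.112 in the 44 without, -0.155 in the 7 with the NRF1 letters and -0.0968 in the 61 without, and -0.125 in the 12 with the YY1 letters and -0.111 in the 56 without. These are descriptions of letters in a window and say nothing about binding.

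The rest of the mitochondrial translation system was described with lists drawn up for this purpose, and no gene of these lists passed the quasi-likelihood test with all mice. The 6 mitoribosomal proteins with other names had a median log2 fold change of -0.0641, and Dap3, a GTP-binding protein of the small subunit, had 82.5, 87.0 and 89.4 CPM in the null mice and 79.5 and 92.4 CPM in the wildtype mice (log2 fold change 0.01). Among 13 translation factors, 11 were negative with a median of -0.245. Gfm2, which recycles ribosomes, had 69.2, 60.9 and 58.1 CPM against 77.8 and 86.0 CPM (log2 fold change -0.38, SE 0.108, adjusted p = 0.111), and the elongation factor Gfm1 had 151, 134 and 121 CPM against 162 and 173 CPM (-0.31, SE 0.118, adjusted p = 0.174). Both were below both wildtype mice in every null mouse. So were 8 of the 13 factors, with 0 above both, where 23.0% and 22.9% of all genes tested were. Gfm2 and Gfm1 passed the quasi-likelihood test without mouse 8637 (adjusted p = 0.025 and 0.0369), where 9.86% of all genes were called lower.

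Of the 17 mitochondrial aminoacyl-tRNA synthetases, 16 were negative with a median of -0.196. Cars2, for cysteine, had 24.1, 24.6 and 23.3 CPM in the null mice and 31.7 and 34.0 CPM in the wildtype mice (log2 fold change -0.45, SE 0.0951, adjusted p = 0.0773 by the quasi-likelihood test and 0.0295 by the exact test). Rars2, for arginine, had 45.7, 38.9 and 32.1 CPM against 51.7 and 65.8 CPM (-0.60, SE 0.175, adjusted p = 0.12 and 0.0447). These were the 2 genes of all the lists that passed the exact test, by which 9.77% of all genes passed, and for both every null mouse was below both wildtype mice. Without mouse 8637, 5 of the 17 synthetases were called lower by the quasi-likelihood test, Cars2 and Rars2 among them, where 9.86% of all genes were. Assembly and rRNA factors had 22 of 27 negative values and a median of -0.0796, with every null mouse below both wildtype mice for 8 and above for 2. Of 14 tested genes of mitochondrial DNA expression, 12 were negative with a median of -0.165, with every null mouse below for 7 and above for 0. In the latter list the elongation factor Tefm had 13.1, 13.2 and 12.3 CPM against 14.7 and 17.7 CPM (-0.33, SE 0.133, adjusted p = 0.189).

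Nuclear-encoded complex I subunits and cytosolic ribosomal proteins had medians of the other sign. Of 37 complex I genes, 25 were positive with a median of 0.0349. The cytosolic list held the 89 tested genes whose symbols matched a pattern for ribosomal proteins, and 79 were positive with a median of 0.152. That pattern also matches symbols of ribosomal S6 kinase genes, so not every gene of the list need be a ribosomal protein. The complex I median turned to -0.0399 without wildtype mouse 9055. The median of the mitochondrial ribosomal proteins was below that of complex I, and complex I below the cytosolic ribosomal proteins, with all mice and whichever mouse was left out. These differences between lists were not tested, all lists come from the same 5 mice, and the cytosolic genes have many processed copies in the genome that share reads with them.

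**Figure D4:**
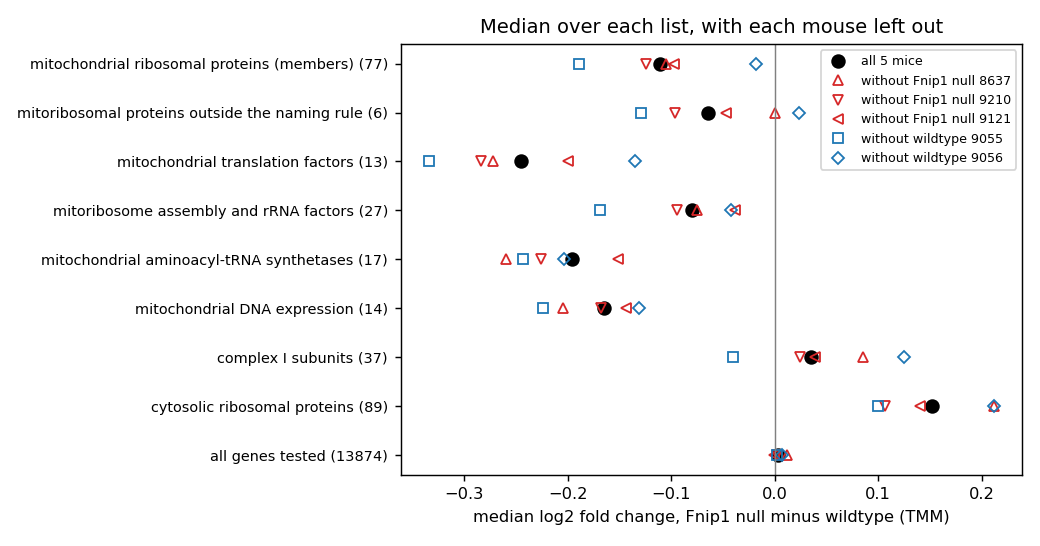
The horizontal axis gives the median log2 fold change (Fnip1 null minus wildtype, TMM) of each list named on the vertical axis with the number of genes tested, with all 5 mice (black) and without each mouse (open symbols, red for null and blue for wildtype mice). Over all mice the medians run from -0.245 for translation factors to 0.152 for cytosolic ribosomal proteins, and the members' median moves between -0.189 and -0.0181 with the wildtype mouse left out.

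Among markers of the cell types of the cortex, 2 podocyte genes passed the test and no marker of another cell type did, where 0.735% of all genes tested passed. Summed levels of 8 proximal tubule markers, of which the phosphate transporter gene Slc34a1 had the most counts, were 12159, 10019 and 9311 CPM in the null mice and 12670 and 13727 CPM in the wildtype mice, with 6 of 8 negative and a median log2 fold change of -0.333. The sums did not overlap between genotypes. The members of that list did not all point one way, with log2 fold changes of -0.59 for Lrp2 and -0.35 for Slc34a1 but 0.63 for Slc5a12 and 0.26 for Slc5a2. Among the null mice, 9121 had the lowest sum for these markers and for the mitochondrial ribosomal proteins, whereas 8637 was above 9210 for the markers and below it for the ribosomal proteins. The 4 podocyte markers summed to 574, 684 and 610 CPM against 323 and 320 CPM, and the 2 that passed were higher in null mice. The 4 collecting duct markers summed to 493, 671 and 671 CPM against 376 and 367 CPM, and the 3 fibroblast markers to 133, 264 and 212 CPM against 122 and 70.6 CPM. For 3 distal convoluted tubule markers the sums were 1009, 1024 and 1123 CPM against 700 and 817 CPM. For 4 endothelial markers they were 218, 255 and 290 CPM against 201 and 121 CPM. The 3 thick ascending limb markers overlapped, at 6876, 6903 and 10446 CPM against 7709 and 6629 CPM. The 8 leukocyte markers, 6 of the 7 tested being positive, summed to 78.6, 98.3 and 171 CPM against 106 and 88.7 CPM and overlapped. Csf1r had the most counts of them in every mouse and was the negative one (log2 fold change -0.61). It had 649, 613 and 1210 counts against 1165 and 1196. Ptprc, Itgam, Adgre1 and Cd68 had more counts in every null mouse than in both wildtype mice, whereas Cd3e and Lyz2 overlapped. By CPM rather than counts, 22.9% of all genes tested had every null mouse above both wildtype mice. None of Ptprc, Itgam, Adgre1 and Cd68 passed the quasi-likelihood test (adjusted p from 0.0743 for Adgre1 to 0.128 for Ptprc). The B cell gene Cd79a was at 0 counts in all 3 null mice. The 4 adipocyte markers summed to 2.06, 59.0 and 23.2 CPM against 2.17 and 3.83 CPM. Their part in the members' values was not tested, and in bulk tissue fewer cells of a type and less RNA per cell cannot be told apart.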

How the data were processed

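The authors sequenced kidney cortex RNA, aligned reads to mm10 with TopHat2 (2.1.0) and counted them per gene with HTSeq (0.6.1), per the submitters' processing notes, and deposited raw read counts per gene symbol for each mouse. The strand setting and annotation release are not given in the sources used here. Reads aligned at several places made up 28.3 to 31.4% of counted entries and were not assigned to genes, which lowers genes with near-identical copies. Rows naming no gene were left out. Genes under 10 counts in more than 2 of the 5 mice were removed. Counts were TMM-scaled and tested with edgeR (4.0.16, R 4.3.3; glmQLFit and glmQLFTest, default settings), with Benjamini-Hochberg adjustment over all 13874 genes. Alternatives were DESeq2 (1.42.0), the likelihood ratio and exact tests of edgeR, other scalings and filters, and each mouse left out. Scripts were tested on simulated data. An exact permutation test on 1 value was not used, because 3 against 2 mice cannot reach significance. Coordinates and sequences are from GRCm38.p6. The members and lists were chosen with earlier results of these data known, and named genes were those past the adjusted p in the quasi-likelihood or exact test, the 5 most positive and 5 most negative, the 5 highest and 5 lowest per length, and members with particular roles. From the other lists a few with the outermost values or a call were named. Mrpl38, Mrpl46, Mrps11, Gfm1, Dap3 and the markers were named after their values were seen.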

Additional observations from a re-analysis of the deposited data

How the results depend on the processing

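With so few mice, differences well below 2-fold were mostly not resolved, and 1 library could decide a summary. The count of members past an adjusted p of 5% was 0 with all mice, 1 by the likelihood ratio test and 1 by DESeq2. It was 0 to 5 with a null mouse left out, by the quasi-likelihood as by the exact test, the 5 coming without null mouse 8637. The median log2 fold change (-0.111) was 0.0529 with library size alone, -0.0472 with upper-quartile factors, and -0.189 to -0.0181 with a mouse left out. Positive members numbered 47 with library size alone and 10 to 35 with a mouse left out, the outermost values coming without wildtype mice 9055 and 9056, respectively. The mean summed level, lower in null mice with TMM (3601 against 3884 CPM), was higher with library size alone (3769 against 3628 CPM). Members outside the wildtype range, 33 with all mice, numbered 22 with library size alone, 23 with upper-quartile factors and 33 to 62 with a mouse left out, the 62 without 9055, where a single wildtype mouse sets the range. Over all 77 members the sign of the fold change turned for 29 with library size alone, 6 with upper-quartile factors, 1 without the filter on low counts, and 1 without 8637, 6 without 9210, 4 without 9121, 8 without 9055 and 17 without 9056. Among the members chosen by the naming rule, the log2 fold change with library size alone was 0.15 for Mrpl15, 0.16 for Mrpl34, 0.05 for Mrpl45, 0.02 for Mrpl47, 0.01 for Mrps10 and 0.09 for Mrps12, and with upper-quartile factors 0.05 for Mrpl15 and 0.06 for Mrpl34. With a mouse left out, the values of such members that turned ranged from -0.11 to 0.18 for Mrpl11, -0.07 to 0.02 for Mrpl15, -0.11 to 0.12 for Mrpl34, -0.23 to 0.02 for Mrpl45, -0.01 to 0.36 for Mrps25 and -0.04 to 0.06 for Mrps30 (-0.02 without 9055). The cause of these shifts was not tested. No paired analysis was possible because the mice carry individual numbers that no genotype shares.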
